A study of Mus musculus with 12 samples.

Results

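Fatty acid oxidation in macrophages was followed through 35 genes of the mitochondrial and peroxisomal routes, out of 54532 genes in the deposited table. The members were taken by gene symbol from a list of pathway enzymes, transporters and regulators, and all 35 symbols were found. Of them, 34 passed the filter on low counts, among 14286 tested genes. This list and the others below were chosen with earlier results of these data known, so counts over them are descriptions. By role they are 4 acyl-CoA synthetases, 5 genes of carnitine ester formation and transport, 5 acyl-CoA dehydrogenases, 3 genes of electron transfer, 5 genes from hydratase to thiolase, 5 auxiliary enzymes, 4 enzymes of peroxisomal oxidation, 2 peroxisomal transporters and 2 transcriptional regulators. RNA came from bone marrow-derived macrophages of 8-week-old mice, grown in 10 ng/ml of the growth factor M-CSF. Hdac3f/f cells carry a floxed Hdac3 gene, the gene of the nuclear corepressor enzyme histone deacetylase 3, and no Cre. Lyz2-Cre-Hdac3f/f cells (Lyz2-Cre from here on) carry the same floxed gene and a Cre recombinase driven by the Lyz2 locus, which is active in myeloid cells. Each genotype was kept for 4 h without treatment or with 500 ng/ml lipopolysaccharide (LPS), the bacterial ligand of Toll-like receptor 4, with 3 libraries in each of the 4 groups. The libraries keep the labels' short names: C1 to C3 for untreated Hdac3f/f, L1 to L3 for Hdac3f/f with LPS, KC1 to KC3 for untreated Lyz2-Cre and KL1 to KL3 for Lyz2-Cre with LPS. The labels do not say whether the libraries of a group came from separate animals or cultures, so p-values measure only the spread between these libraries, which may be technical. The floxed allele is in every group, no group carries Cre without it, and the extent of recombination is not given in the labels.

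Long-chain fatty acids are first joined to coenzyme A by acyl-CoA synthetases on the outer mitochondrial membrane, the endoplasmic reticulum and other membranes, where the acyl-CoA can go to oxidation or to glycerolipid synthesis. For mitochondrial oxidation the acyl group is passed to carnitine, carried across the inner membrane and returned to coenzyme A, and then shortened in rounds of dehydrogenation, hydration, a further dehydrogenation and thiolysis, with electrons leaving through a flavoprotein to ubiquinone. Peroxisomes run a parallel route for very long-chain and branched acyl groups, which enter through ABC transporters of the Abcd family. In macrophages, oxidation of fatty acids is a known feature of alternatively activated cells, and LPS-activated cells are known for a shift towards glycolysis and lipid storage.

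Libraries held between 16553432 and 18706990 counts, and levels are given in CPM, counts relative to the library size after scaling by TMM, whose factors ran from 0.716 to 1.26. The mean TMM factor was 1.19 in C, 0.763 in L, 1.2 in KC and 0.920 in KL, so scaling moves with LPS: the median log2 LPS response of all tested genes was -0.08 in Hdac3f/f and -0.08 in Lyz2-Cre with TMM, and -0.72 and -0.46 with library totals alone. All 10 macrophage markers passed the filter. They summed to 15102 to 18666 CPM in C, 23364 to 26575 in L, 6904 to 12202 in KC and 19439 to 21085 in KL. That sum includes Lyz2, the Cre locus. Between genotypes 1 of the 10 was higher and 1 lower in Lyz2-Cre without LPS, and 3 were higher and 4 lower with LPS. Adipocyte markers summed to at most 0.0780 CPM in any library, with Adipoq, Cidec and Lep at 0 counts in all 12. Stromal markers passed the filter at 5 of 6, and their summed level was 280 to 1346 CPM in C, 805 to 1668 in L, 15.4 to 128 in KC and 33.2 to 42.7 in KL. Hdac3 counts over the whole gene, which do not separate the floxed exons and so do not check the deletion, did not pass the test between genotypes (log2 -0.14 ± 0.09 without LPS, edgeR adjusted p = 0.352). Lyz2 stood at 31.0 CPM in KC1, beside 5181 and 5637 CPM in KC2 and KC3, so the differences that rest on the untreated Lyz2-Cre group were also fitted without KC1. Without it the LPS response in Lyz2-Cre cells held 6 members higher and 21 lower, and values without KC1 stand beside the genotype differences and the interactions below. In bulk RNA a smaller number of cells of one type cannot be told apart from less RNA per cell.

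In untreated Hdac3f/f cells the highest member per deposited gene length was Cpt1a, the gene of carnitine palmitoyltransferase 1A, at 30.8 ± 4.79 CPM per kilobase (SD, n = 3). Hsd17b4, the peroxisomal bifunctional enzyme of branched and very long-chain acyl groups, followed at 25.1 ± 1.14, and Acaa2, the mitochondrial thiolase, at 22.6 ± 2.07 CPM per kilobase (SD, n = 3). The lowest Cpt1a library lay below the highest of Hsd17b4, so these neighbours were not apart beyond their spread. Acsl1 was the member of rank 25 there, at 3.98 ± 0.128 CPM per kilobase (SD, n = 3). With LPS the order changed: Acsl1 ranked 1 in Hdac3f/f cells at 131 ± 16.6 and in Lyz2-Cre cells at 146 ± 17.8 CPM per kilobase (SD, n = 3), and Cpt1a ranked 7 in Hdac3f/f cells. The deposited length equals all GENCODE M21 exon bases of the gene for Acsl1 (10483) and Hadha (8730). The order of genes, and the shares and ratios per kilobase below, therefore depend on the annotation. Ppara, the fatty acid receptor that drives these genes in liver, had 0 counts in all 12 libraries, which allows up to 3 counts in each, and was not tested.

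LPS lowered most of the pathway in both genotypes, and 3 of the 4 acyl-CoA synthetases rose. In Hdac3f/f cells 22 of the 34 tested members fell and 6 rose, beside 32.1% lower and 28.0% higher over all 14286 tested genes (edgeR quasi-likelihood test, Benjamini-Hochberg adjusted p under 0.05). A log2 change below -1 was seen at 17 of these, and the members' median log2 change was -0.96, against -0.08 for all tested genes. In Lyz2-Cre cells 21 fell and 5 rose, beside 27.7% and 25.2% of all tested genes, 13 were below -1, and the median was -0.62. With library totals alone the counts were 3 higher and 28 lower in Hdac3f/f and 3 higher and 26 lower in Lyz2-Cre. That scaling also moved the share of all calls that were higher from 46.5% to 20.2% in Hdac3f/f and from 47.7% to 24.6% in Lyz2-Cre. By genotype, 20 members fell in both, and 5 rose in both: Acsl1, Acsl4, Acsl5, Eci2 and Acaa1a. Acadl rose in Hdac3f/f and lay at the threshold in Lyz2-Cre.

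**Figure D1:**
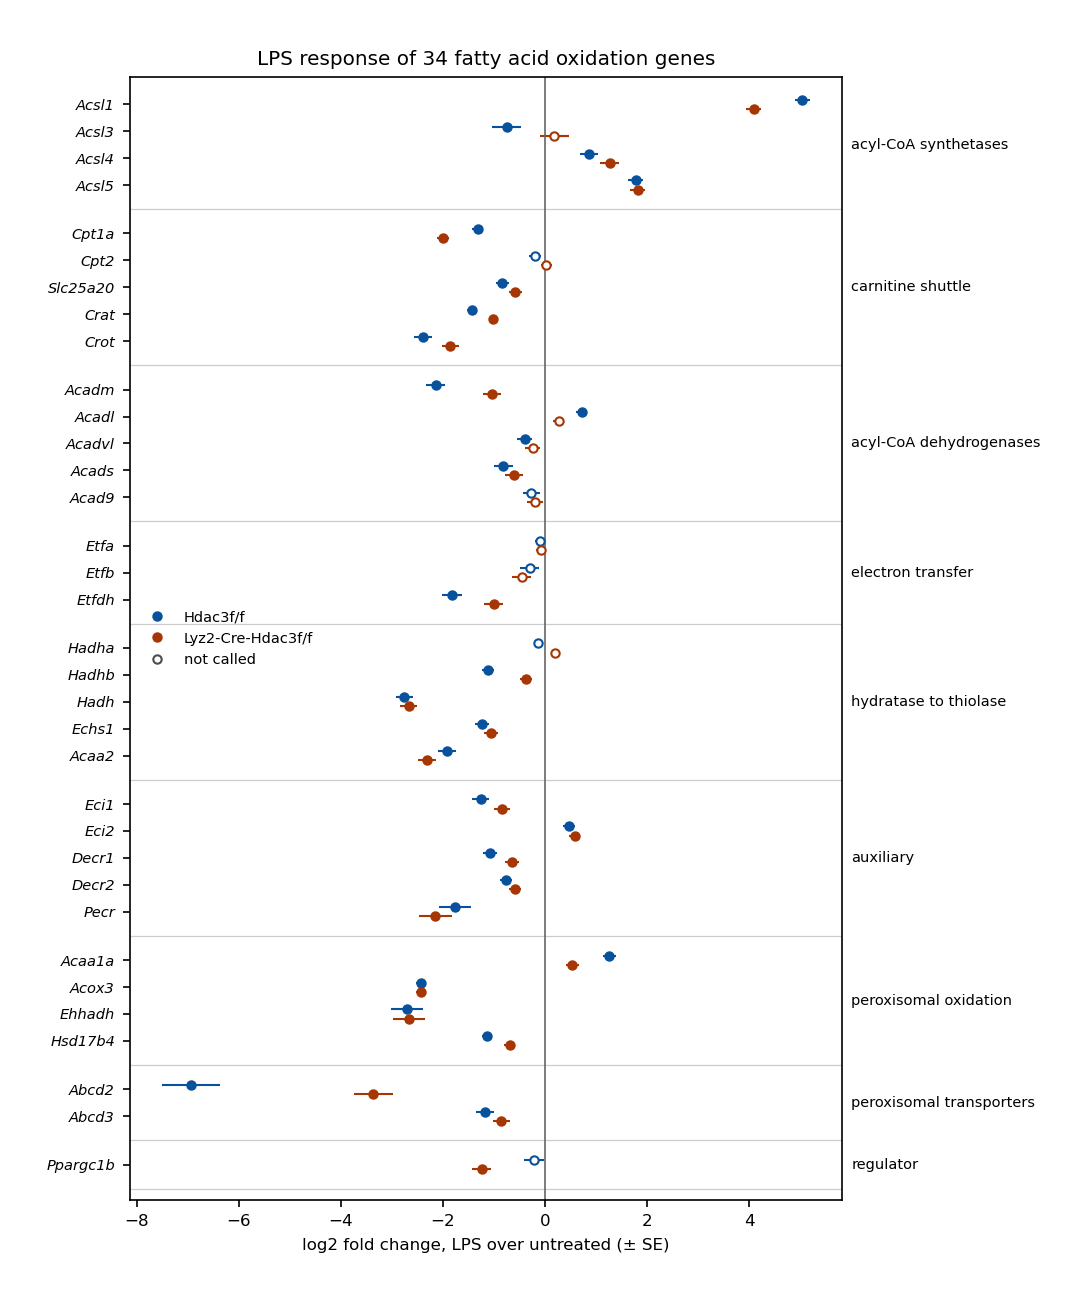
Log2 fold change with LPS (x axis, ± SE from the fit) of the 34 tested members, by role, in Hdac3f/f (blue) and Lyz2-Cre-Hdac3f/f (brown). Filled points passed the test and open points did not; 22 and 21 members lie to the left as called falls, while Acsl1 stands far to the right at 5.04 and 4.08.

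Of the 4 acyl-CoA synthetases 3 rose in each genotype, and Acsl3 was called lower in Hdac3f/f. Acsl1 (ENSMUSG00000018796, chromosome 8, 46471037 to 46536051 in mm10), the long-chain synthetase of fat, muscle and macrophages, was at 42.9, 42.0 and 40.3 CPM in C1 to C3 and at 1555, 1209 and 1358 CPM in L1 to L3. In Lyz2-Cre cells it was at 91.4, 99.7 and 80.2 CPM in KC1 to KC3 and at 1688, 1589 and 1327 CPM in KL1 to KL3. Every LPS library lay above every untreated one, and every untreated Lyz2-Cre library above every untreated Hdac3f/f library. The log2 change was 5.04 ± 0.15 (32.9-fold, adjusted p = 4.0e-11) in Hdac3f/f and 4.08 ± 0.14 (17.0-fold, adjusted p = 2.0e-10) in Lyz2-Cre. Acsl5, a synthetase of mitochondria and endoplasmic reticulum, rose by a log2 change of 1.77 ± 0.14 and 1.81 ± 0.14 (adjusted p = 2.5e-07 and 3.0e-07). Acsl4, which prefers arachidonic acid, rose by 0.86 ± 0.18 in Hdac3f/f and 1.27 ± 0.18 in Lyz2-Cre; with library totals alone it was not called in Hdac3f/f (log2 0.23). Acsl3, a synthetase of lipid droplets and endoplasmic reticulum, was the low member, at 5.72 ± 0.893 CPM in C and 3.38 ± 1.57 in L (SD, n = 3). Its log2 change of -0.75 ± 0.29 in Hdac3f/f (adjusted p = 0.0368) was not called without C1, C3, L2 or L3 (adjusted p from 0.0562 to 0.127), and in Lyz2-Cre its log2 change was 0.18 ± 0.28 (adjusted p = 0.62).

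Per kilobase, which allows levels of different genes to be added, the 4 synthetases summed to 26.4 ± 2.29 CPM per kilobase in C and 190 ± 29.9 in L, and to 36.7 ± 1.17 in KC and 230 ± 28.3 in KL (SD, n = 3). Acsl5 was the leading synthetase without LPS, with 47.5 ± 2.83% of the sum in C and 43.0 ± 2.04% in KC (SD, n = 3). Acsl1 led with LPS: its share went from 15.1 ± 0.842% to 69.2 ± 2.12% in Hdac3f/f and from 23.5 ± 2.15% to 63.6 ± 0.823% in Lyz2-Cre (SD, n = 3). These shares are ratios within a library and do not depend on the scaling between libraries, but they do depend on the gene lengths. The ranges of the Acsl1 share did not overlap between any of the 4 groups.

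**Figure D2:**
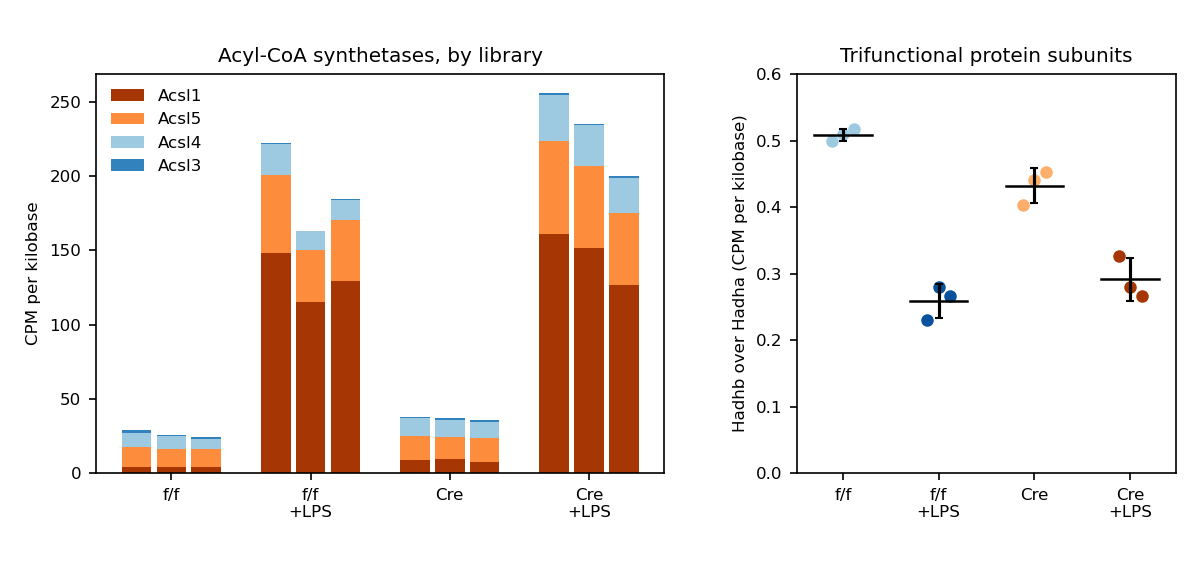
Left, CPM per kilobase of the 4 acyl-CoA synthetases stacked for each library, 3 bars a group; the bars of the LPS groups reach 163 to 256 CPM per kilobase and are mostly Acsl1. Right, the ratio of Hadhb to Hadha per kilobase in each library (points), with the mean and SD; it is near 0.509 in untreated Hdac3f/f and near 0.259 with LPS.

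The sequence before the RefSeq start of Acsl1 is shown with those of Hadh and Acadm, members that fell, because the largest rise and some of the largest falls met in one pathway. They are the 250 bases upstream of the RefSeq start (build GRCm38.p6, the build family of mm10), 5′ to 3′ on the gene's strand, at chr8:46470787-46471036 (plus strand), chr3:131272102-131272351 (minus strand) and chr3:153944644-153944893 (minus strand), with matches to the motifs searched in capitals.
Acsl1: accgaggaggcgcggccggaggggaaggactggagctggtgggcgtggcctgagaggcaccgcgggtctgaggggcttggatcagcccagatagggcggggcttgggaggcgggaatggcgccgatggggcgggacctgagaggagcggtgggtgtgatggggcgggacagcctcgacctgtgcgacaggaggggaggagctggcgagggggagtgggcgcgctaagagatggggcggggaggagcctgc
Hadh: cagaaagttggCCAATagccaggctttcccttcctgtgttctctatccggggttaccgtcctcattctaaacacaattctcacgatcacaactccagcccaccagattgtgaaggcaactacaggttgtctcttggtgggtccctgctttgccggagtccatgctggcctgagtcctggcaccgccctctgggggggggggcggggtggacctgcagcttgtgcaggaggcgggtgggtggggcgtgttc
Acadm: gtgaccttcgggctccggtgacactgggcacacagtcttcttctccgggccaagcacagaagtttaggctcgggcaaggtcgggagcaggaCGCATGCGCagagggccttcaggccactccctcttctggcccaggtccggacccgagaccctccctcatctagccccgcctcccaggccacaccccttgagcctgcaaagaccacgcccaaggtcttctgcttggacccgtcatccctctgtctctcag
None of these 3 windows overlaps an annotated exon. The capitals mark a CCAAT box upstream of Hadh and an NRF1 element, CGCATGCGC, upstream of Acadm, and the Acsl1 window shown, with 72.0% G and C, held no match. Acsl1 has another RefSeq start, whose window is not shown and holds CCAAT. Windows were at hand for 28 members (30 windows), and the 250 upstream bases of each were searched on both strands. For 22 of the 30 the 50 bases after the start lay in a GENCODE M21 transcript of the gene on its strand. Acadm, whose upstream bases are shown, was among those for which they did not. The NRF1 element was in 3 of 30 (Acadm, Etfdh and Ppara), against 1.45% of all 32851 RefSeq windows, and CCAAT in 13 of 30 against 33.8%. The direct repeat read by PPAR and retinoid X receptor pairs (AGGNCA, any base, AGGNCA), the oestrogen-related receptor element TCAAGGTCA and the NF-kB form GGNNTTTCC were in 0 of 30, against 0.338%, 0.387% and 4.93% of all windows. A match or its absence describes these letters in these windows and nothing about a factor.

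Carnitine ester formation and transport fell at 4 of its 5 genes in each genotype. Cpt1a (ENSMUSG00000024900, chromosome 19, 3323301 to 3385732) encodes the enzyme that hands long-chain acyl groups to carnitine and is the point at which malonyl-CoA controls the pathway. It was at 153, 112 and 132 CPM in C1 to C3 and at 53.6, 47.8 and 57.3 in L1 to L3, and at 175, 168 and 165 in KC1 to KC3 and 42.6, 42.7 and 42.2 in KL1 to KL3. No LPS library reached an untreated one, and the lowest levels were those of the Lyz2-Cre cells with LPS. The log2 change was -1.32 ± 0.12 in Hdac3f/f (adjusted p = 5.1e-07) and -1.99 ± 0.12 in Lyz2-Cre (adjusted p = 1.9e-08). Crot, the peroxisomal carnitine octanoyltransferase, had log2 changes of -2.40 ± 0.18 and -1.86 ± 0.17, from 20.8 ± 1.44 to 3.93 ± 0.510 CPM in Hdac3f/f (SD, n = 3). Crat, carnitine acetyltransferase, had log2 changes of -1.44 ± 0.10 and -1.01 ± 0.09, and Slc25a20, the carnitine-acylcarnitine carrier of the inner membrane, of -0.84 ± 0.13 and -0.58 ± 0.13. Cpt2, which returns the acyl group to coenzyme A inside, was at 13 ± 1.09 CPM in C and 11.3 ± 0.670 in L (SD, n = 3), and did not pass the test in either genotype (log2 -0.19 ± 0.12 and 0.03 ± 0.11). With library totals alone Cpt2 was called lower in both, at -0.82 and -0.36.

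The acyl-CoA dehydrogenases, which start each round and differ by chain length, split by gene. Acadm (ENSMUSG00000062908, chromosome 3, 153922357 to 153944632), the medium-chain enzyme, was at 32.4, 35 and 29.3 CPM in C1 to C3 and at 9.10, 5.30 and 7.47 in L1 to L3. In Lyz2-Cre cells it was at 31.8, 28.1 and 28.5 CPM in KC1 to KC3 and at 17.7, 12.8 and 12.7 in KL1 to KL3. LPS libraries were below untreated ones in both genotypes, and every KL library lay above every L library. The log2 change was -2.14 ± 0.19 in Hdac3f/f (adjusted p = 5.4e-07) and -1.03 ± 0.18 in Lyz2-Cre (adjusted p = 2.9e-04). Acads, the short-chain enzyme, had log2 changes of -0.81 ± 0.18 and -0.60 ± 0.18; in Lyz2-Cre the call was lost without KL1 (adjusted p = 0.0642). Acadvl, the very long-chain enzyme, had a log2 change of -0.40 ± 0.15 in Hdac3f/f (adjusted p = 0.0303), with C and L overlapping, and was not called without C2, C3, L1 or L3 (adjusted p from 0.0589 to 0.129). Acadl, the long-chain enzyme, rose in Hdac3f/f from 39.8 ± 3.06 to 65.5 ± 6.77 CPM (SD, n = 3; log2 0.72 ± 0.11, adjusted p = 7.7e-05), and was not called with library totals alone (log2 0.08). In Lyz2-Cre cells Acadl was at 39.9 ± 3.63 and 48.1 ± 1.16 CPM (SD, n = 3; log2 0.27 ± 0.11, adjusted p = 0.051). That response was called higher by DESeq2 (adjusted p = 0.0146), with DESeq2 size factors in edgeR (0.0277), in the 2-group fit (0.0233), with the replicate number as a block (0.0473), and without C1, L1, L2, L3 or KC1 (0.0234 to 0.0441). Acad9, which also serves in complex I assembly, did not pass the test in either genotype (log2 -0.27 ± 0.16 and -0.19 ± 0.16).

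Electrons from these dehydrogenases pass through electron transfer flavoprotein to its ubiquinone oxidoreductase, and the 2 flavoprotein genes and the oxidoreductase gene behaved apart. Etfdh (ENSMUSG00000027809, chromosome 3, 79603788 to 79629500), the oxidoreductase, was at 22.6, 15.4 and 15.6 CPM in C1 to C3 and at 6.46, 3.90 and 4.72 in L1 to L3. Its levels were 22.6, 21 and 23.5 CPM in KC1 to KC3 and 10.3, 12.5 and 10.5 in KL1 to KL3. LPS libraries were below untreated ones in each genotype without overlap, and all KL libraries were above all L libraries. The log2 change of Etfdh was -1.83 ± 0.20 in Hdac3f/f (adjusted p = 4.0e-06) and -1.01 ± 0.18 in Lyz2-Cre (adjusted p = 4.9e-04). Etfa and Etfb, the flavoprotein subunits, did not pass the test: log2 -0.10 ± 0.10 and -0.07 ± 0.10 for Etfa, and -0.30 ± 0.19 and -0.45 ± 0.19 for Etfb. With library totals alone both were called lower in both genotypes (Etfa -0.74 and -0.46, Etfb -0.94 and -0.84).

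From hydratase to thiolase, 4 of 5 genes fell in each genotype. Hadh (ENSMUSG00000027984, chromosome 3, 131233419 to 131272101), the short- and medium-chain 3-hydroxyacyl-CoA dehydrogenase whose upstream sequence is shown above, was at 25.3, 26.3 and 33.5 CPM in C1 to C3 and at 3.68, 4.05 and 4.86 in L1 to L3. In KC1 to KC3 it was at 21.4, 19.4 and 23.9 CPM, and in KL1 to KL3 at 3.02, 3.47 and 3.64. LPS left Hadh at 14.8% of its untreated level in Hdac3f/f and 15.6% in Lyz2-Cre, with log2 changes of -2.75 ± 0.16 and -2.67 ± 0.16 (adjusted p = 1.1e-08 and 2.4e-08). Acaa2, the mitochondrial 3-ketoacyl-CoA thiolase, fell from 34.3 ± 3.14 to 9.07 ± 1.60 CPM in Hdac3f/f and from 30.6 ± 4.15 to 6.17 ± 1.2 CPM in Lyz2-Cre (SD, n = 3). Its log2 changes were -1.92 ± 0.17 and -2.31 ± 0.17 (adjusted p = 6.0e-07 and 1.8e-07). Echs1, the short-chain enoyl-CoA hydratase, fell, with log2 changes of -1.24 ± 0.13 and -1.06 ± 0.13.

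Hadha and Hadhb encode the alpha and beta subunits of the trifunctional protein, which needs both, and stand head to head on chromosome 5 (30118304 to 30155162 on the minus strand, and 30155248 to 30184593 on the plus strand). The 85 bases between their deposited starts, at chr5:30155163-30155247 on the plus strand of GRCm38.p6, are shown because both genes start from this one stretch and their RNA moved unequally. They hold 69.4% G and C, no annotated exon and no match to the motifs above, so no letter is in capitals.
Hadha-Hadhb: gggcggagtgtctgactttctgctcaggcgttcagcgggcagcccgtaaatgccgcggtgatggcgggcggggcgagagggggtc
Hadha was at 96.1, 91.6 and 96.3 CPM in C1 to C3, and at 90.5, 80.1 and 88.4 in L1 to L3. Hadhb was at 36.3, 35.3 and 37.6 CPM in C1 to C3 and at 15.8, 16.9 and 17.8 in L1 to L3. Hadhb with LPS was below every untreated library by a wide margin, while Hadha differed by little, though without overlap. The log2 change in Hdac3f/f was -0.13 ± 0.09 for Hadha (adjusted p = 0.202) and -1.11 ± 0.12 for Hadhb (adjusted p = 4.7e-06). With library totals alone Hadha was called lower there, at -0.77. The ratio of Hadhb to Hadha per kilobase, which does not depend on scaling between libraries, was 0.509 ± 0.00879 in C and 0.259 ± 0.0254 in L (SD, n = 3). In Lyz2-Cre cells it was 0.432 ± 0.0259 in KC and 0.291 ± 0.0319 in KL (SD, n = 3), between the values of the Hdac3f/f groups as a mean, with KL and L overlapping. Hadha in Lyz2-Cre cells was at 84.7, 80.7 and 81.5 CPM in KC1 to KC3 and at 100.4, 93.4 and 88.8 in KL1 to KL3, higher with LPS without overlap. Its log2 change there was 0.20 ± 0.09 (adjusted p = 0.0741), called higher by DESeq2 (0.00823), with DESeq2 size factors in edgeR (0.0341) and in the 2-group fit (0.0441). The lower ratio with LPS in Lyz2-Cre cells therefore holds a higher mean of Hadha as well as a lower one of Hadhb. Hadhb in Lyz2-Cre cells was at 25.8, 26.8 and 27.9 CPM in KC1 to KC3 and at 24.8, 19.8 and 17.9 in KL1 to KL3. Its log2 change there was -0.37 ± 0.12 (adjusted p = 0.0214), not called without KC2, KC3, KL2 or KL3 (adjusted p from 0.0548 to 0.134).

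Auxiliary enzymes move or reduce the double bonds of unsaturated acyl groups so that they can enter the cycle. Eci1 and Decr1, the mitochondrial isomerase and 2,4-dienoyl-CoA reductase, fell in both genotypes, with log2 changes of -1.26 ± 0.17 and -0.84 ± 0.16 for Eci1 and of -1.08 ± 0.13 and -0.65 ± 0.13 for Decr1. Decr2, the peroxisomal dienoyl reductase, stood at -0.76 ± 0.11 and -0.59 ± 0.11. Pecr, the peroxisomal trans-2-enoyl-CoA reductase, stood at -1.76 ± 0.31 and -2.15 ± 0.32 on the log2 scale, from 3.97 ± 0.471 to 1.16 ± 0.580 CPM in Hdac3f/f and from 3.40 ± 0.766 to 0.760 ± 0.0938 CPM in Lyz2-Cre (SD, n = 3). Eci2, an isomerase found in peroxisomes and mitochondria, went the other way, with log2 changes of 0.47 ± 0.11 and 0.58 ± 0.11 (adjusted p = 0.00299 and 7.9e-04). Its direction in Hdac3f/f turned with library totals alone, to -0.16, and in Lyz2-Cre its call was lost there (log2 0.19).

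Peroxisomal oxidation fell at 3 of its 4 genes in each genotype, and at similar size in both for Acox3 and Ehhadh. Acox3 (ENSMUSG00000029098, chromosome 5, 35583040 to 35615352), the pristanoyl-CoA oxidase of branched acyl groups, was at 123, 125 and 125 CPM in C1 to C3 and at 21.9, 24.8 and 22.6 in L1 to L3. It was at 151, 148 and 132 CPM in KC1 to KC3 and at 25.0, 26.6 and 27.9 in KL1 to KL3. LPS left 18.6% and 18.5% of the untreated level, with log2 changes of -2.43 ± 0.10 and -2.44 ± 0.10 (adjusted p = 4.1e-10 and 5.7e-10). The difference between these responses, an interaction of -0.01 ± 0.13, did not pass the test (adjusted p = 0.982). Ehhadh, the bifunctional hydratase and dehydrogenase of straight chains, was low, at 2.90 ± 0.343 CPM in C and 0.442 ± 0.0939 in L, and 2.70 ± 0.287 in KC and 0.420 ± 0.177 in KL (SD, n = 3). Its log2 changes were -2.70 ± 0.32 and -2.66 ± 0.31. Hsd17b4 had log2 changes of -1.14 ± 0.10 in Hdac3f/f and -0.69 ± 0.10 in Lyz2-Cre, from 85.4 ± 3.88 to 38.7 ± 4.46 CPM in Hdac3f/f (SD, n = 3).

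Acaa1a (ENSMUSG00000036138, chromosome 9, 119339676 to 119350299), the peroxisomal thiolase, was the member of the route that rose. It was at 68.5, 71.4 and 78.0 CPM in C1 to C3 and at 141, 189 and 192 in L1 to L3, and at 65.5, 66.9 and 71.5 in KC1 to KC3 and 101, 83.9 and 110 in KL1 to KL3. The log2 change was 1.26 ± 0.13 in Hdac3f/f (adjusted p = 3.3e-06) and 0.54 ± 0.13 in Lyz2-Cre (adjusted p = 0.0043), the latter not called with library totals alone (log2 0.14). Acaa1a shares 290 exon bases, 6.57% of its exons, with Myd88 on the other strand, and the sources used here do not say whether counting used strand. Myd88, the adaptor of Toll-like receptors, moved the same way: 2.46 and 1.64 for the LPS responses, -0.84 between genotypes with LPS and -0.82 for the interaction, all on the log2 scale. The part of these shared bases in the values of Acaa1a was not tested. The same holds for Acadvl, which shares 42.9% of its exon bases with Dvl2 (log2 -0.82 and -1.17 with LPS), for Acsl5, which shares 8.31% with Zdhhc6 (1.14 and 1.33), and for Etfdh, which shares 3.70% with 4930579G24Rik (-1.91 and -0.56), all on opposite strands. Other members overlap too, among them Acsl1 with Gm45244 (9.91%; 4.80 and 5.20) and Echs1 with Paox (1.71%; -2.46 and -3.30), on opposite strands. Over all 12 libraries Gm45244 held 156 counts against 141599 for Acsl1, and 4930579G24Rik held 194 against 3317 for Etfdh. Myd88 held 37555 against 20848 for Acaa1a, and Dvl2 held 9076 against 6119 for Acadvl. Zdhhc6 held 16045 against 30699 for Acsl5, and Paox held 6529 against 7936 for Echs1. Acsl3 shares 5.60% with Utp14b on the same strand (-0.23 and 0.47). The largest shared part was that of Etfb, 53.0% with Gm45233 on the same strand, which held 1 count in all libraries. Pecr shares 11.5% with D230017M19Rik, with 47 counts, on opposite strands.

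The peroxisomal transporters both fell. Abcd2, which takes up very long-chain and polyunsaturated acyl-CoA and stood at 218, 116 and 102 counts in C1 to C3, had 1, 0 and 1 counts in L1 to L3. Lyz2-Cre cells kept a low level with LPS: 14, 10 and 4 counts in KL1 to KL3, after 100, 130 and 138 in KC1 to KC3. Every LPS library was below every untreated one, and every KL library above every L library. With 2 counts in all of L, the ratio of counts scaled to library size was given with its exact 95% interval in place of the fitted change: C was 142-fold higher than L, from 38.9 to 1172, an interval that covers counting error only. In Lyz2-Cre the log2 change was -3.36 ± 0.38 (adjusted p = 8.5e-06). Abcd3, the more abundant transporter, went from 34.4 ± 5.93 to 15.2 ± 3.48 CPM in Hdac3f/f and from 39.9 ± 3.32 to 22.1 ± 3.11 CPM in Lyz2-Cre (SD, n = 3), log2 changes of -1.18 ± 0.18 and -0.85 ± 0.17 (adjusted p = 7.8e-05 and 0.00107).

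Ppargc1b (ENSMUSG00000033871, chromosome 18, 61298136 to 61400431) encodes the coactivator PGC-1beta, known for driving mitochondrial genes in alternatively activated macrophages. It was at 8.11, 8.42 and 7.57 CPM in C1 to C3 and at 6.25, 8.89 and 5.59 in L1 to L3, which overlapped. In Lyz2-Cre cells it was at 12.1, 14.8 and 10.0 CPM in KC1 to KC3 and at 5.31, 4.97 and 5.33 in KL1 to KL3, with no overlap. The log2 change was -0.22 ± 0.19 in Hdac3f/f (adjusted p = 0.339) and -1.24 ± 0.19 in Lyz2-Cre (adjusted p = 1.2e-04).

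**Figure D3:**
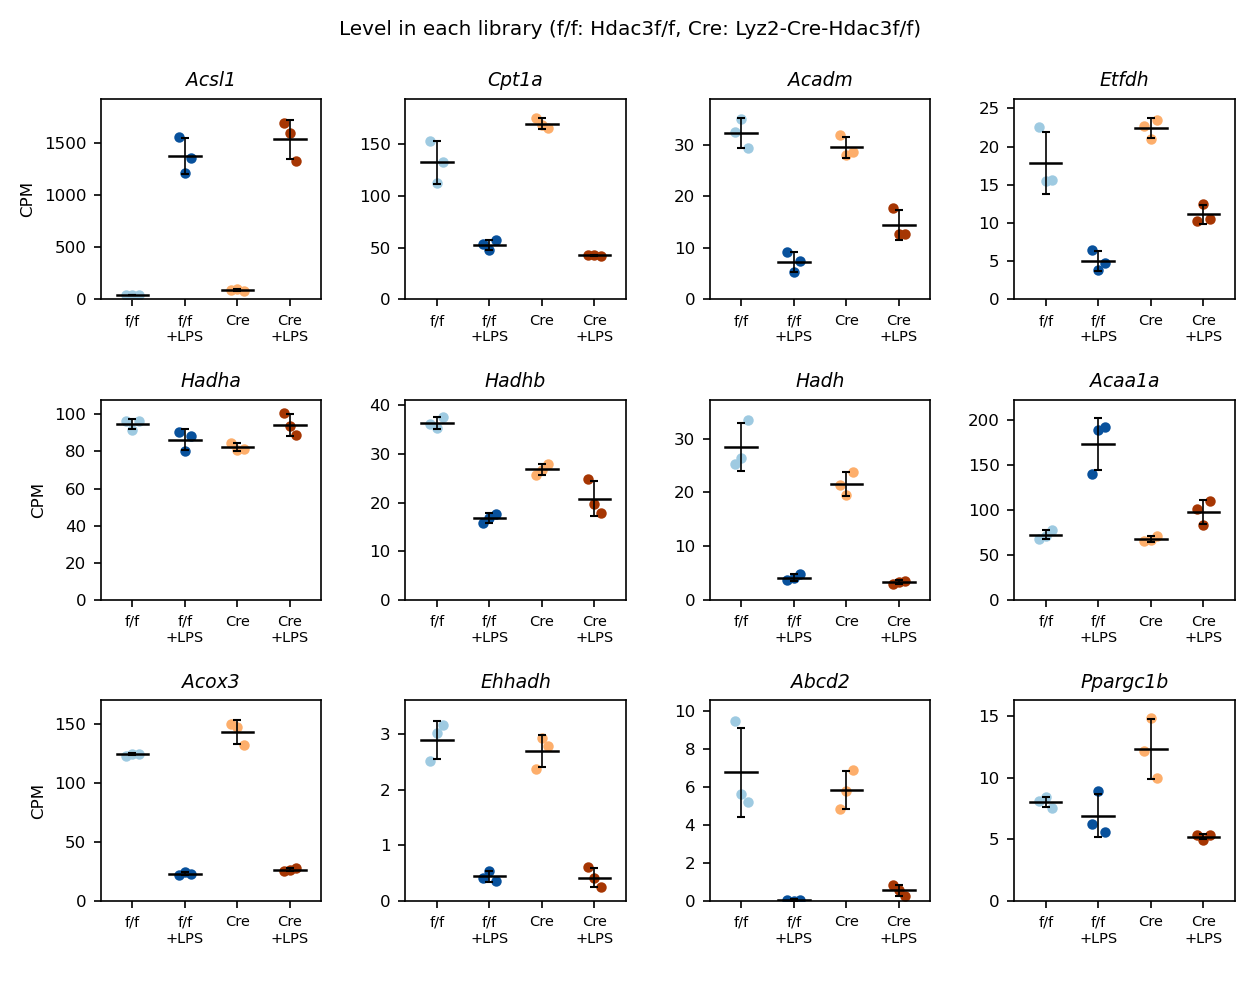
Level in CPM (linear y axis from 0, a scale of its own for each gene) of 12 members in each library (points) of the 4 groups, with the mean (bar) and SD. Acsl1 and Acaa1a are high with LPS, Cpt1a, Acadm, Etfdh, Hadh, Acox3, Ehhadh and Abcd2 are low with LPS in both genotypes.

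The wider pathway, 82 further genes in 8 lists of which 73 were tested, also fell more often than it rose. With LPS 43 fell and 11 rose in Hdac3f/f (median log2 -0.72), and 43 fell and 8 rose in Lyz2-Cre (median -0.66). Over all tested genes 32.1% fell and 28.0% rose in Hdac3f/f, and 27.7% fell and 25.2% rose in Lyz2-Cre. The list nearest to the members, 15 other mitochondrial acyl-CoA and ketone body enzymes, fell at 14 of 15 in each genotype, with medians of -1.44 and -0.98. Its 2 lowest p-values belonged to Acot2, a mitochondrial acyl-CoA thioesterase (-3.82 ± 0.27 and -3.44 ± 0.26), and Oxct1, the enzyme that starts ketone body use (-1.92 ± 0.14 and -1.77 ± 0.14). Of 10 tested other peroxisomal acyl-CoA genes, 8 fell and 1 rose in Hdac3f/f and 7 fell in Lyz2-Cre. Peroxisome biogenesis genes were more mixed, with 7 lower and 2 higher of 15 in Hdac3f/f and 8 lower and 1 higher in Lyz2-Cre.

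Control genes of the pathway also moved. Among 11 tested regulators, 4 rose and 4 fell in Hdac3f/f, and 4 rose and 3 fell in Lyz2-Cre. Pparg, the fatty acid receptor of macrophages and fat cells, had a log2 change of -3.17 ± 0.17 in Hdac3f/f, and Lpin1, a phosphatidate phosphatase and coactivator, of -4.09 ± 0.25 in Hdac3f/f and -3.47 ± 0.24 in Lyz2-Cre. Of 8 genes of malonyl-CoA and AMP-activated protein kinase control, 2 rose and 2 fell in each genotype. Mlycd, which removes malonyl-CoA, the inhibitor of the Cpt1 enzymes, stood at -0.93 ± 0.18 and -1.12 ± 0.19. Prkab1, a subunit gene of that kinase, rose, at 0.77 ± 0.11 and 0.52 ± 0.11. Acsf2, a mitochondrial acyl-CoA synthetase outside the Acsl family, stood at -2.87 ± 0.16 and -2.75 ± 0.15 on the log2 scale. Cd36, the fatty acid uptake receptor, stood at -1.28 ± 0.18 in Hdac3f/f. Slc27a4, a fatty acid transport gene, rose in Lyz2-Cre, at 1.31 ± 0.12. Of 8 tested genes of uptake and activation, 2 rose and 4 fell in Hdac3f/f, and 1 rose and 5 fell in Lyz2-Cre.

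Lists of the same organelle were 17 citric acid cycle genes and 18 genes of mitochondrial import, chaperones and carriers. Their median changes stood closer to that of all tested genes than the members' did. By calls the cycle still fell more often than all tested genes. Of those, 32.1% were lower and 28.0% higher in Hdac3f/f, and 27.7% and 25.2% in Lyz2-Cre. The cycle had 9 lower and 3 higher in Hdac3f/f (median -0.39) and 8 lower and 3 higher in Lyz2-Cre (median -0.03), with Suclg2, a succinyl-CoA ligase subunit, at -2.13 ± 0.20 and -1.42 ± 0.19. The import list had 2 lower and 4 higher in Hdac3f/f (median -0.05) and 3 lower and 4 higher in Lyz2-Cre (median -0.02). Vdac3, an outer membrane channel, rose by 0.57 ± 0.10 and 0.81 ± 0.10 on the log2 scale. The lists were set beside each other as counts, and the difference between them was not tested.

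Without LPS the genotypes differed at few members. In Lyz2-Cre cells 2 of 34 were higher and 2 lower than in Hdac3f/f, beside 5.12% higher and 6.66% lower over all tested genes, shares close to the background. Acsl1 was 2.17-fold higher, 90.5 ± 9.81 against 41.7 ± 1.34 CPM (SD, n = 3; log2 1.12 ± 0.13, adjusted p = 3.0e-04), and stayed called under every alternative setting run, without KC1 too (log2 1.11, adjusted p = 0.00157). Ppargc1b was 1.53-fold higher (log2 0.62 ± 0.18, adjusted p = 0.0467). Hadhb and Decr1 were lower, with log2 differences of -0.44 ± 0.12 (adjusted p = 0.033) and -0.50 ± 0.13 (adjusted p = 0.0254). These last 3 calls were lost without KC1, at adjusted p = 0.102 for Ppargc1b, 0.106 for Hadhb and 0.0842 for Decr1. They were also lost without other single libraries: Hadhb without C2, C3, KC2 or KC3 (adjusted p from 0.078 to 0.106 over all 5), Decr1 without C2, C3 or KC2 (0.0735 to 0.108 over all 4), and Ppargc1b without 9 of the 12 (0.051 to 0.192), all but L1, L2 and KC3. The stromal markers were lower in Lyz2-Cre at 5 of 5 tested, and the mast cell and basophil markers summed to 37.0 to 41.0 CPM in C and 65.7 to 90.9 in KC, with 5 of 6 higher. Neutrophil and granulocyte precursor markers summed to 219 to 382 CPM in C and 57.1 to 161 in KC, with 2 of 8 tested lower and a median log2 difference of -1.37. Lymphocyte and natural killer markers summed to 9.39 to 11.8 CPM in C and 12.2 to 18.0 in KC, with 2 of 5 tested higher. The part of these cells in the differences between genotypes was not tested.

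With LPS 7 of 34 members were higher in Lyz2-Cre cells and 3 lower, beside 15.7% higher and 16.9% lower over all tested genes, counts near the background. With library totals alone the split was 21 higher and 1 lower, and the share of all calls that were higher went from 48.2% to 77.1%. Etfdh was 2.20-fold higher (log2 1.14 ± 0.20, adjusted p = 0.00152) and Acadm 1.97-fold higher (0.98 ± 0.19, adjusted p = 0.00255), with the library values given above not overlapping. Acsl4 was 1.75-fold higher (0.81 ± 0.18, adjusted p = 0.00535), at 110, 68.3 and 74.4 CPM in L1 to L3 and at 167, 148 and 129 in KL1 to KL3. For Abcd2 the 28 counts in KL against 2 in L gave a ratio of 11.5, with an exact 95% interval from 2.91 to 99.8 for counting error only (fitted test, adjusted p = 0.00701). These 4 stayed called without any single library.

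**Figure D4:**
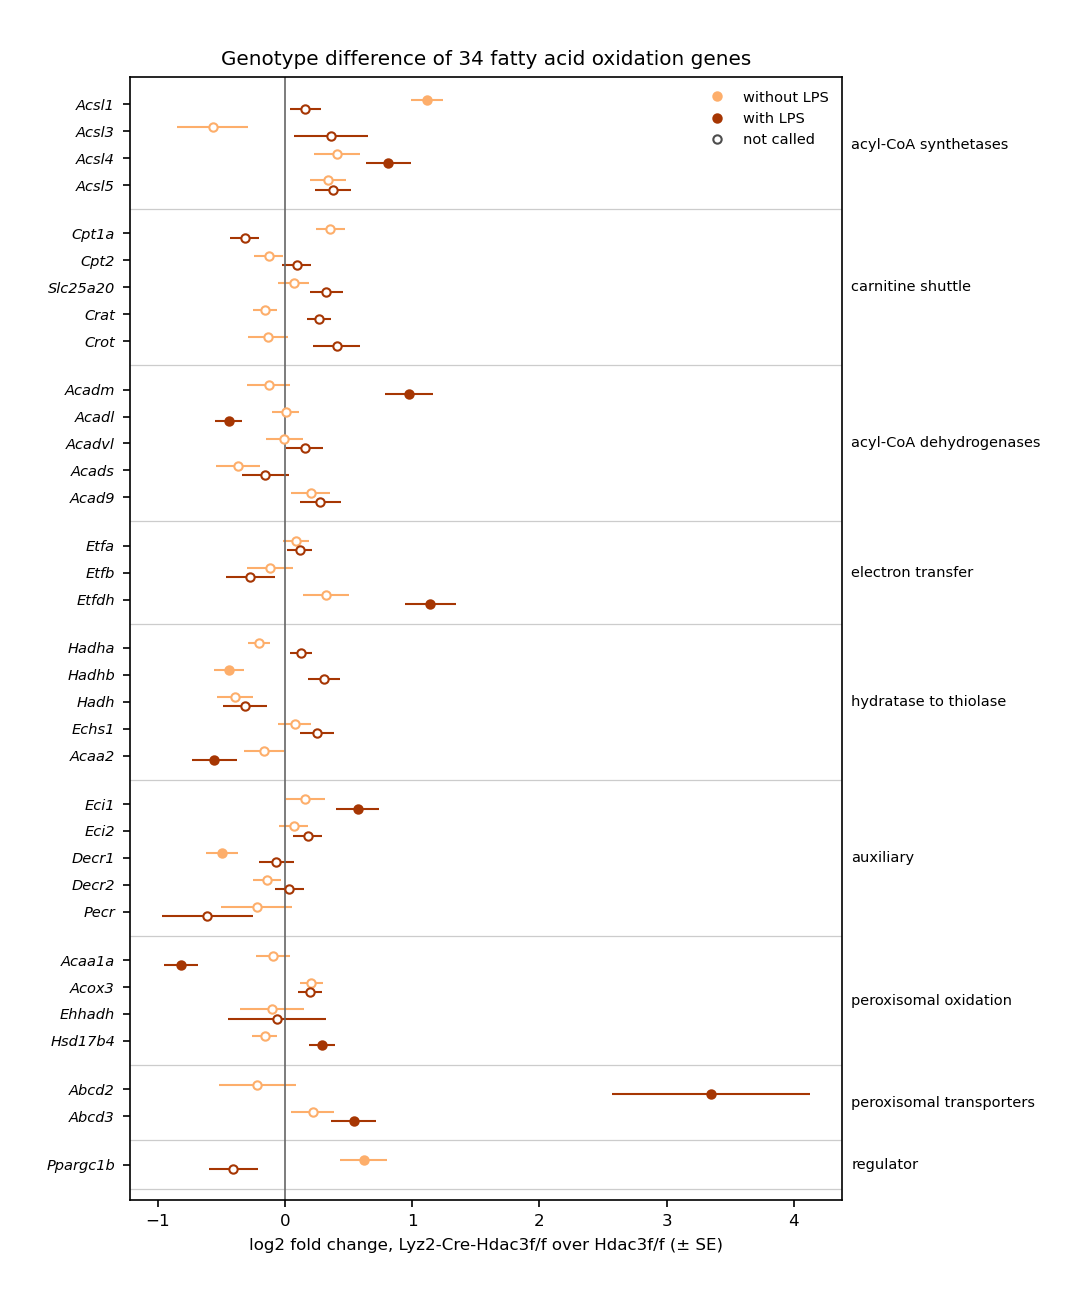
Log2 fold change of Lyz2-Cre-Hdac3f/f over Hdac3f/f (x axis, ± SE) of the 34 tested members, by role, without LPS (light) and with LPS (dark). Filled points passed the test; Acsl1 leads without LPS at 1.12, and Etfdh, Acadm and Acsl4 stand to the right with LPS. The fitted value of Abcd2 with LPS rests on 2 counts in the Hdac3f/f group.

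Smaller rises with genotype under LPS were Eci1 (0.57 ± 0.17, adjusted p = 0.0219), Abcd3 (0.54 ± 0.18, adjusted p = 0.036) and Hsd17b4 (0.29 ± 0.10, adjusted p = 0.0447), on the log2 scale. Eci1 was not called without L1, L3, KL2 or KL3 (adjusted p from 0.0515 to 0.0734) and Abcd3 not without L2, L3, KL1 or KL2 (0.0978 to 0.137). Hsd17b4 was not called without 9 of the 12 libraries (0.0512 to 0.166), all but C1, L1 and KL3. Lower in Lyz2-Cre cells were the thiolase genes Acaa1a (-0.82 ± 0.13, adjusted p = 9.3e-04) and Acaa2 (-0.56 ± 0.18, adjusted p = 0.0318) and the dehydrogenase gene Acadl (-0.44 ± 0.11, adjusted p = 0.00884). Acaa2 was not called without L2, L3, KL1 or KL2 (0.109 to 0.122), and with library totals alone neither Acaa2 (-0.28) nor Acadl (-0.18) was called. Acaa1a stayed called without any single library. With LPS the stromal markers were lower at 5 of 5 tested, and mast cell and basophil markers summed to 106 to 148 CPM in L and 96.9 to 157 in KL, with 5 of 6 higher and 1 lower in Lyz2-Cre. Neutrophil and granulocyte precursor markers summed to 131 to 302 CPM in L and 103 to 371 in KL, with a median log2 difference of 0.29 over 8 tested, and lymphocyte and natural killer markers to 5.77 to 11.6 in L and 14.4 to 23.8 in KL, with 3 of 5 higher. Their part in these differences was not tested.

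In the authors' deposited table, where a negative log2 ratio means more RNA in Lyz2-Cre, 5 members were called without LPS, which were the 4 named here and Acsl5 (-0.30, adjusted p = 0.0408). With LPS the authors' deposited table called 7 members, all among the 10 here, without Eci1, Acaa2 and Hsd17b4 (adjusted p = 0.101, 0.0907 and 0.175).

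Whether the LPS response itself differed between genotypes was asked with the interaction, the response in Lyz2-Cre minus that in Hdac3f/f. It passed the test at 7 members, 3 above 0 and 4 below, beside 2.58% and 5.54% of all tested genes. Above 0, that is a smaller fall in Lyz2-Cre cells, were Acadm (1.11 ± 0.25, adjusted p = 0.0205), Hadhb (0.75 ± 0.17, adjusted p = 0.0205) and Abcd2 (fitted 3.57 ± 0.84 with 2 counts in L, adjusted p = 0.0228). Below 0 were Acsl1 and Acaa1a, which rose less in Lyz2-Cre (-0.96 ± 0.18, adjusted p = 0.00694, and -0.72 ± 0.19, adjusted p = 0.0331). Cpt1a and Ppargc1b, with the larger fall in Lyz2-Cre, were also below 0 (-0.67 ± 0.16, adjusted p = 0.024, and -1.02 ± 0.27, adjusted p = 0.0348). For Acsl1 the levels with LPS overlapped between genotypes, at 1209 to 1555 CPM in L and 1327 to 1688 in KL, and the untreated levels did not. For Cpt1a the untreated levels were higher and the LPS levels lower in Lyz2-Cre cells, and neither difference alone passed the edgeR test with all libraries (log2 0.36 ± 0.11, adjusted p = 0.0579, and -0.32 ± 0.12, adjusted p = 0.0511). Both differences were called by DESeq2 (adjusted p = 0.036 and 0.0145), with the replicate number as a block (0.0425 and 0.0417) and without C1 (0.014 and 0.0263). The one with LPS was also called with DESeq2 size factors in edgeR (0.0291) and without C2 (0.0378) or L2 (0.0386).

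Acsl1 kept its interaction without any single library, and without KC1 it was -0.94 (adjusted p = 0.0184); with library totals alone it was -0.71 (adjusted p = 0.0543). Hadhb was not called without C2 or KC1 (adjusted p = 0.0502 and 0.0539). Acadm was not called without C2, KC2, KC3 or KL1 (0.0513 to 0.0605), and Abcd2 not without L2, L3, KL1 or KL2 (0.0507 to 0.0672). Without KC1 both stayed called, Acadm at 1.17 (adjusted p = 0.0338) and Abcd2 at a fitted 3.45 (0.0441). Cpt1a was not called without C2, L3, KC1, KC2 or any KL library (0.0517 to 0.0731). Ppargc1b was not called without C2, C3, L2, KC1, KC2 or any KL library (0.0653 to 0.0929), and Acaa1a not without 9 of the 12 libraries (0.0542 to 0.107), all but C3, L1 and KL3. With library totals alone the interactions of Cpt1a (-0.42), Acaa1a (-0.47) and Ppargc1b (-0.77) were not called, and 8 members were called above 0 and none below.

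Most members that fell in both genotypes fell by less in Lyz2-Cre cells, 16 of 20, as did 69.0% of the 3302 tested genes that fell in both. With TMM the median interaction was 0.18 over the 34 members and 0.02 over all tested genes. With library totals alone it was 0.27 over all tested genes, and the members' median is not given for that scaling. Of the members that just missed the threshold, Crat (0.42 ± 0.13, adjusted p = 0.072), Hsd17b4 (0.45 ± 0.14, adjusted p = 0.073) and Etfdh (0.82 ± 0.27, adjusted p = 0.0839) were also above 0. Acadl was below 0 (-0.45 ± 0.15, adjusted p = 0.0934). DESeq2 called each of them: Hsd17b4 (adjusted p = 0.0265), Acadl (0.0288), Crat (0.037) and Etfdh (0.0416). In the wider pathway 5 of 73 genes were above 0 and 1 below, beside 2.58% and 5.54% of all tested genes. Mut, the methylmalonyl-CoA mutase of odd-chain and branched acyl groups, stood at 0.92 ± 0.22 (adjusted p = 0.0254), Cd36 at 1.11 ± 0.25 (adjusted p = 0.0171) and Pparg at 0.88 ± 0.24 (adjusted p = 0.0413). Pparg was already lower in untreated Lyz2-Cre cells (log2 -1.41 ± 0.15, adjusted p = 1.8e-04), and was lower there with LPS (-0.54 ± 0.19, adjusted p = 0.0426). Fabp4, a cytosolic fatty acid carrier, was the gene below 0, at -1.61 ± 0.29 (adjusted p = 0.00599). With LPS Fabp4 was lower in Lyz2-Cre (-1.52 ± 0.21, adjusted p = 4.2e-04). Between genotypes, the wider pathway held 3 of 73 genes higher and 3 lower without LPS, and 14 higher and 12 lower with LPS. Over all tested genes these shares were 5.12% and 6.66%, and 15.7% and 16.9%.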

How the data were processed

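RNA of 12 libraries was measured as counts per gene. The deposited counts are whole numbers that the authors made from reads, with TopHat2 and mm10 named in the submitters' processing notes; the counting tool, its strand setting and the annotation release are not given in the sources used here. The FPKM values, which the authors computed with the deposited gene length, were not used, and that length gave the CPM per kilobase. The log2 ratios and p-values of the authors' comparisons, deposited with no test named, are quoted only as such. Genes were filtered with filterByExpr over the 4 groups, scaled by TMM and fitted with 1 coefficient per group in edgeR 4.0.16 (R 4.3.3), and the quasi-likelihood test gave 5 contrasts with Benjamini-Hochberg adjustment over 14286 genes, called under 0.05. Alternatives were library totals, DESeq2 size factors, DESeq2 1.42.0, no filter, 2-group fits, a block on the replicate number, and leaving out each library. Described in full are called members past a log2 change of 1 with LPS, all members called between genotypes or for the interaction, and Cpt1a, Ppara and Ppargc1b, and of each other list the called genes with the 2 lowest p. Members and lists were chosen with earlier results of these data known, so their counts are descriptions. Promoter windows and annotation came from RefSeq and GENCODE M21, on GRCm38. Depth limits precision: a count of 0 allows up to 3 counts.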

Additional observations from a re-analysis of the deposited data

Results flagged for a closer look

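For 7 members the LPS response differed between genotypes by the interaction test of edgeR (adjusted p under 0.05), as the response in Lyz2-Cre minus that in Hdac3f/f on the log2 scale. Acadm (1.11), the medium-chain dehydrogenase, and Hadhb (0.75), the beta subunit of the trifunctional protein, fell less in Lyz2-Cre, and Abcd2 (3.57), the peroxisomal transporter, fell to 2 counts in Hdac3f/f and to 28 in Lyz2-Cre. Acsl1 (-0.96) and Acaa1a (-0.72) rose less in Lyz2-Cre, and Acaa1a shares exon bases with Myd88 on the other strand. Cpt1a (-0.67) and Ppargc1b (-1.02) fell more in Lyz2-Cre. Acsl1 alone among the 7 stayed called when any single library was left out.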

How the results depend on the processing

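In the 2 LPS responses 20 to 22 members were lower and 5 to 7 higher when single libraries were left out. The genotype and interaction counts moved more. Leaving out single libraries gave 1 to 2 members higher and 0 to 4 lower without LPS (2 and 2 with all), 4 to 10 higher with LPS (7 with all), and 1 to 8 above and 1 to 4 below 0 for the interaction (3 and 4 with all). Over all tested genes they gave 267 to 1223 higher (732 with all) and 461 to 1335 lower (952) without LPS, 1262 to 3007 higher (2243) and 1536 to 2997 lower (2413) with LPS, and 108 to 957 above 0 (369) and 405 to 1038 below 0 (791) for the interaction. Library totals gave 3 members higher in each LPS response, 1 lower between genotypes without LPS, 21 higher and 1 lower with LPS, and 8 above and 0 below 0 for the interaction. They turned the LPS response of Eci2 in Hdac3f/f (-0.16) and of Cpt2 in Lyz2-Cre (-0.36, not called before); these scalings differ by the TMM factors. With them all genes counted 2086 higher and 8242 lower (3993 and 4591 with TMM) in the Hdac3f/f response, 2109 and 6463 (3606 and 3958) in Lyz2-Cre, 4465 and 1329 between genotypes with LPS, and 1134 and 448 for the interaction. DESeq2 size factors and 2-group fits each gave 1 member higher without LPS, 2-group fits 3 higher with LPS, and DESeq2 6 above 0 for the interaction, with 596 above and 1196 below 0 over all genes; without a filter 1463 genes were lower without LPS; the cause was not tested. No 2-group fit exists for the interaction. With the replicate number as a block the members higher and lower were 6 and 22, 6 and 21, 3 and 3, 8 and 4, and 3 and 4 in the 5 contrasts, which ended 1 call and added 6. Whether the numbers pair the libraries was not settled. Correlations of deviations between same-numbered libraries ran from -0.404 to 0.217, and some but not all libraries matched best with their own number. With 3 libraries a group this check cannot decide on a pairing.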
